A study of Rattus norvegicus with 17 samples.

Results

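Amino acid and integrated stress response genes were followed in rat spinal cord neurons by 10 genes (Asns, Psat1, Phgdh, Slc3a2, Atf4, Atf5, Ddit3, Trib3, Ddit4 and Xbp1). They were chosen by name, as every probe set whose only gene symbol is 1 of these, which gave 12 of the 31099 probe sets on the array. Of the 12, 10 passed a filter on low signal, 1 for each gene, and 18625 probe sets passed in all. The 2 probe sets that did not pass belong to Trib3. The filter used the mean of all arrays and not the group labels. A gene that was high in 1 of the larger groups alone could still pass through that group.

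Each of the 17 arrays held RNA of 1000 retrogradely labelled neurons that were cut out by laser from sections of unfixed spinal cord. Neurons called Regenerating and Non-regenerating in the labels came from the same 7 rats (MM11, MM13, MM14, MM16 and MM17, and MOON265 with MOON266), so each of these animals gave 1 array of either kind. Neurons called Traced, which had not been axotomised (their axons had not been cut), came from 3 other rats (MM15, MM18 and MM19). The labels used here give no strain, sex, age, treatment time or site of injury for any animal, and all 3 groups share the tracing, the laser capture and the repeated amplification of the RNA. The array of Traced MM15 is called a high yield replicate in its label.

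The integrated stress response is a brake on protein synthesis. Kinases that sense missing amino acids, unfolded protein, viral RNA or heme shortage phosphorylate the initiation factor eIF2, most translation slows, and the messenger RNA of the transcription factor Atf4 is translated more. Atf4 then switches on genes that take up and make amino acids, charge transfer RNA and, through Ddit3, also called Chop, can lead to cell death. In injured neurons the branch that senses unfolded protein and the Atf3 and Atf4 family have been studied as part of the response to a cut axon.

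None of the 10 genes passed the test in any of the 3 comparisons of groups. Asns, the enzyme that makes asparagine, lay nearest to a difference: its signal was 654 ± 238 (SD, n = 7) in Regenerating and 425 ± 120 (SD, n = 7) in Non-regenerating neurons, and it was higher in 6 of 7 animals. Phgdh, the first enzyme of serine synthesis, and Xbp1, a transcription factor of the unfolded protein response, had the next smallest p. The transcription factors Atf4, Atf5 and Ddit3, the stress genes Trib3 and Ddit4, the serine enzyme Psat1 and the transporter subunit Slc3a2 had differences between Regenerating and Non-regenerating neurons of at most 0.14 on the log2 scale as a mean over the 7 animals, with larger differences of both signs in single animals.

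Across the probe sets tested, arrays differed in ways that the groups do not name. The median signal lay between 32.7 and 38.9 on the 4 MOON arrays and between 45.1 and 76.7 on the 13 MM arrays, and all Traced animals were MM animals. The arrays of Non-regenerating MM17 and Traced MM15 stood apart, where the median correlation with the rest was 0.847 and 0.821 against 0.905 or more elsewhere, and with the lowest ratios of the 3 prime to the 5 prime Gapdh control probe set (10.0 and 11.7, against 20.7 to 150 on the other 15). All 10 neuron markers were present in every group. Of 8 motor neuron markers, 7 were higher in Regenerating than in Non-regenerating neurons (median log2 difference 1.19; Calca passed), and their summed signal was 1351 to 6141 in Regenerating, 778 to 1768 in Non-regenerating and 954 to 1478 in Traced neurons. All 9 tested microglia and macrophage markers were higher in Non-regenerating than in Traced neurons (median 1.38; 1 passed), with sums of 3570 to 6198 against 1983 to 2309 (3595 to 6889 in Regenerating), while the macrophage integrin Itgam stayed below the offset. Astrocyte sums overlapped, at 15723 to 28050, 15300 to 30803 and 15568 to 22543 in the Regenerating, Non-regenerating and Traced arrays, but 9 of 10 astrocyte markers were higher in Non-regenerating than in Traced neurons (median 0.32; 0 passed) and 7 of 10 in Regenerating than in Traced neurons (median 0.26). Gfap, the astrocyte filament protein, passed in the latter (1.33, adjusted p = 0.0260 by limma) and differed by 1.37 (adjusted p = 0.0716) in the former. Within animals, 7 of 9 tested microglia and macrophage markers were higher in Regenerating than in Non-regenerating neurons (median 0.19). At an unadjusted p under 0.05 by limma, 4 of them were higher, and 0 passed. In the same comparison 9 of 10 astrocyte markers (median -0.15) and 7 of 10 neuron markers (median -0.13) were lower, and 0 passed. The part of these marker shifts in the values below was not tested. In these bulk samples fewer cells of a type and less RNA per cell cannot be told apart.

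**Figure D1:**
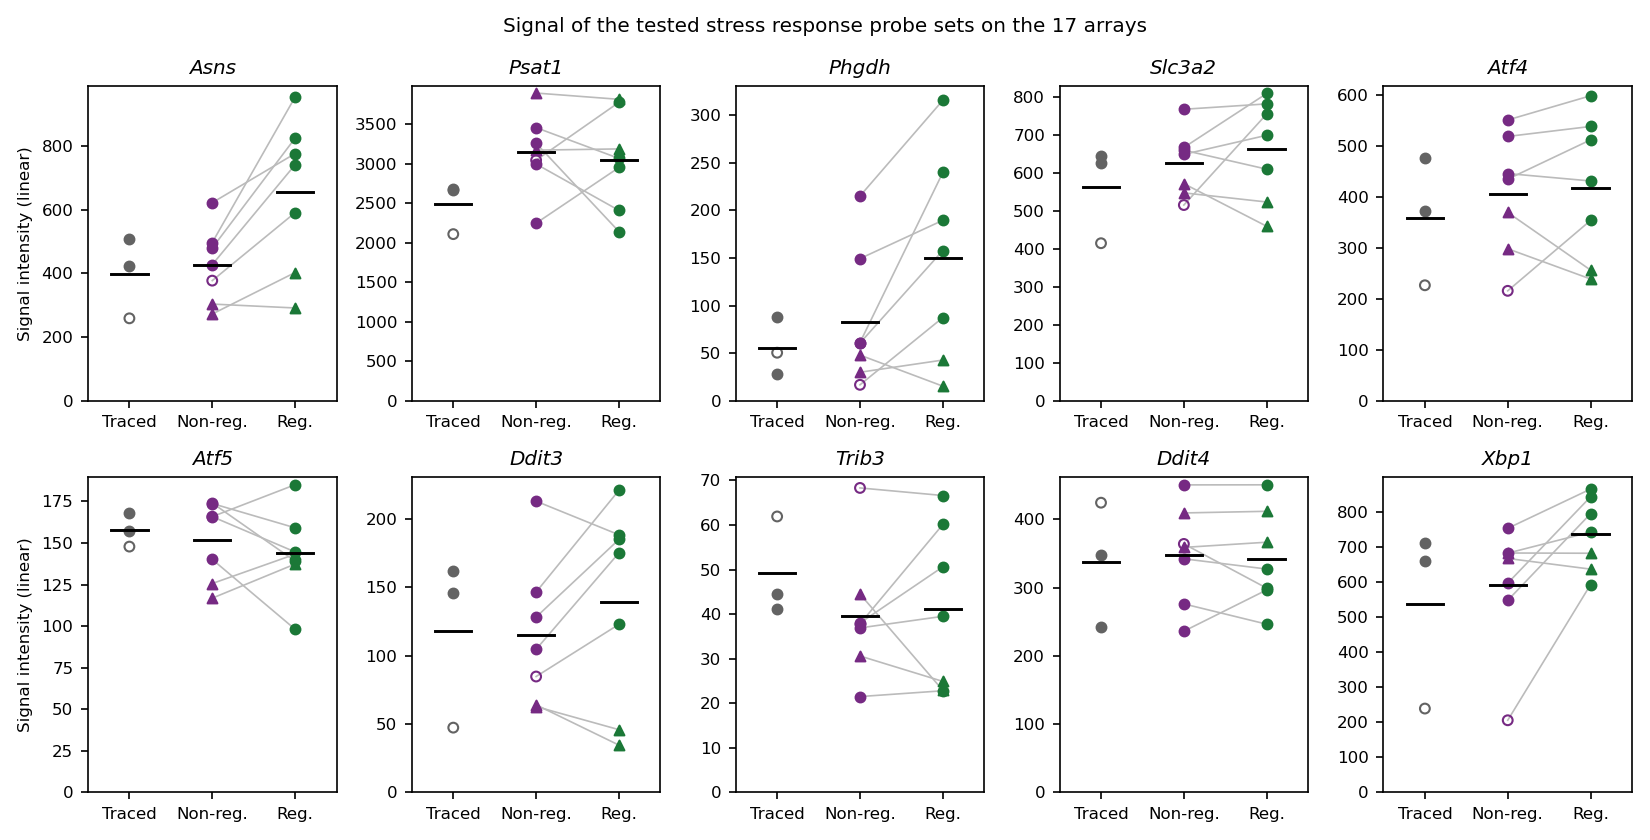
Deposited signal of each of the 10 genes on each of the 17 arrays, on linear axes from 0, by group. Each point is 1 array, triangles are MOON animals, open circles are Non-regenerating MM17 and Traced MM15, black bars are group means and grey lines join the 2 arrays of an animal; every gene's groups overlap, and both open circles lie lowest for Xbp1.

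The promoters of 2 of the genes are shown because they hold the recognition sites that name this response. Windows of 300 bases (250 before and 50 after a start site) for all 10 genes were taken from RefSeq with the rat assembly GRCr8, 11 windows in all since Slc3a2 has 2. They were searched on both strands for the amino acid response site of Atf4 (the CARE, spelled TGATGNAAN), which 3.97% of all 33469 rat windows hold, and for the endoplasmic reticulum stress element (CCAAT and CCACG set apart by a fixed spacer), which 0.0657% hold. Of the 10 genes, only Trib3, a pseudokinase that restrains Atf4 and Akt, held the first, on the opposite strand, 22 to 14 bases before the start. Only Xbp1 held the second, on the strand of the gene, 65 to 47 bases before the start. The 250 bases before the start are given 5′ to 3′ on the strand of the gene, with the match in capitals, for Trib3 at chr3:161275534-161275783 on the minus strand and for Xbp1 at chr14:84604373-84604622 on the plus strand.
Trib3: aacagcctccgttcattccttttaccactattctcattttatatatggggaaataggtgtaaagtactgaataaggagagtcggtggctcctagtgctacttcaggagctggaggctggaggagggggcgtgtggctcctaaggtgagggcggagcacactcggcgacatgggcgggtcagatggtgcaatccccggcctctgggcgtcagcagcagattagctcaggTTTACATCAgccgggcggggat
Xbp1: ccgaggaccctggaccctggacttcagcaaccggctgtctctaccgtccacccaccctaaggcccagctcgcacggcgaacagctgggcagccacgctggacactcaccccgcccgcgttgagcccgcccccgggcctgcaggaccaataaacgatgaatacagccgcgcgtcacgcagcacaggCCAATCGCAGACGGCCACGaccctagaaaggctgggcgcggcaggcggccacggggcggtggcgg
The windows of Asns, Psat1, Phgdh, Slc3a2, Atf4, Atf5, Ddit3 and Ddit4 hold neither set of letters. A match is a description of these letters and not a bound site, and sites outside the window were not searched.

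The comparison within animals asks which genes go with regeneration. Among the enzymes, the Asns signal in Non-regenerating neurons was 621.6 in MM11, 479.4 in MM13, 496.6 in MM14, 427.4 in MM16, 377.2 in MM17, 272.5 in MOON265 and 303.7 in MOON266. In Regenerating neurons of the same animals, in that order, the Asns signal was 775.8, 824.1, 952.9, 740.7, 590.4, 402.6 and 291.5. All 5 MM animals and MOON265 were higher on the Regenerating side, MOON266 was not, the MOON animals were lowest on both sides, and the groups overlapped. Asns differed by a log2 value of 0.55 (SE 0.13, 95% interval 0.27 to 0.84), which is 1.47-fold, with an adjusted p of 0.523 by limma. In that fit 0.140% of all tested probe sets had a smaller p. Its difference by animal was 0.31, 0.76, 0.92, 0.77 and 0.63 in the MM animals and 0.54 and -0.06 in the MOON animals. A two-sided exact test of Asns by sign flips over the 7 animals gave p = 0.0312, where the smallest that 7 pairs can give is 0.0156; it is unadjusted, and the 10 genes were each tested so. Being higher in 6 or 7 of 7 animals was met by 7.39% of all tested probe sets.

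Phgdh, which turns a glycolytic intermediate towards serine, was dimmer and more variable. Its signal in Non-regenerating neurons was 215.1 in MM11, 60.8 in MM13, 61.3 in MM14, 149.4 in MM16, 16.9 in MM17, 30.1 in MOON265 and 48.1 in MOON266. In the Regenerating neurons, in the same order, the Phgdh signal was 315.6, 157.9, 239.8, 189.6, 87.5, 42.9 and 15.5. Phgdh was higher in 6 of 7 animals and lower in MOON266, and the groups overlapped over most of their range. The log2 difference was 0.67 (SE 0.26, 95% interval 0.11 to 1.24; 1.60-fold), with an adjusted p of 0.678 by limma and an exact sign-flip p of 0.125. By animal, the difference of Phgdh ran from -1.03 in MOON266 to 1.73 in MM14. The signals of 16.9 and 15.5 lie close to the offset of 16 added before taking logs, which shrinks such differences.

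Psat1, the enzyme after Phgdh in serine synthesis, was the brightest of the 10 probe sets. Its signal (lowest, median, highest) was 2139.9, 3065.0 and 3812.0 in Regenerating and 2246.1, 3169.6 and 3891.2 in Non-regenerating neurons. The ranges almost coincided, and Psat1 was higher in 3 of 7 animals (log2 difference -0.06, SE 0.14, adjusted p = 0.936 by limma). The 2 serine enzymes therefore had differences of opposite sign, neither of which passed. Slc3a2, the heavy chain that brings several amino acid transporters to the cell surface, had signals of 460.1, 699.9 and 810.0 in Regenerating and 516.1, 649.6 and 768.4 in Non-regenerating neurons. Slc3a2 was higher in 4 of 7 animals, by 0.07 on the log2 scale (SE 0.13, adjusted p = 0.915 by limma).

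Atf4, the central transcription factor of the response, is mainly set by translation, which arrays of messenger RNA do not measure. Its signal was 551.0, 445.9, 434.9, 518.7, 215.9, 369.7 and 298.4 in the Non-regenerating neurons of the 7 animals in the order above. In the Regenerating neurons the Atf4 signal was 598.5, 431.4, 512.0, 538.3, 354.0, 256.6 and 239.1. MM17 was low on both sides and the MOON animals were lowest on the Regenerating side. The log2 difference of Atf4 was 0.03 (SE 0.14, 95% interval -0.27 to 0.33, adjusted p = 0.971 by limma), so that a difference beyond 0.33 in either direction lies outside the interval.

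Atf5, a relative of Atf4 with a similar control of translation, had signals of 98.1, 143.2 and 185.0 (lowest, median, highest) in Regenerating and 116.8, 165.8 and 174.0 in Non-regenerating neurons, a log2 difference of -0.07 (SE 0.14, adjusted p = 0.916 by limma). Ddit3, which encodes the Chop protein of lasting stress, had signals of 213.1, 104.7, 128.3, 146.6, 84.8, 62.8 and 64.1 in the Non-regenerating neurons of the 7 animals in the order above. The Ddit3 signals in their Regenerating neurons were 188.5, 175.3, 185.1, 221.1, 123.0, 45.9 and 34.6. Ddit3 was higher on the Regenerating side in MM13, MM14, MM16 and MM17 and lower in MM11 and both MOON animals, with a log2 difference of 0.14 over all (SE 0.18, adjusted p = 0.869 by limma).

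Trib3 was dim. Its tested probe set read 22.8, 39.5 and 66.6 (lowest, median, highest) in Regenerating and 21.5, 37.8 and 68.3 in Non-regenerating neurons, a log2 difference of 0.01 (SE 0.17, adjusted p = 0.997 by limma). The other 2 probe sets of Trib3 read between 1.6 and 34.9 and between 1.5 and 22.9 over the 17 arrays and were not tested. Ddit4, also called Redd1, an inhibitor of mTOR, read 246.5, 327.3 and 450.7 in Regenerating and 236.2, 359.0 and 450.6 in Non-regenerating neurons. Its log2 difference was -0.02 (SE 0.12, adjusted p = 0.979 by limma), the smallest SE among the 10 genes.

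Xbp1 has its messenger RNA spliced when unfolded protein builds up, and this probe set gives a total that does not separate the spliced form. In Non-regenerating neurons the Xbp1 signal was 753.3 in MM11, 547.8 in MM13, 596.9 in MM14, 682.5 in MM16, 205.8 in MM17, 682.9 in MOON265 and 667.4 in MOON266. In Regenerating neurons, in the same order, Xbp1 read 865.3, 795.0, 843.2, 742.7, 592.7, 682.2 and 636.9. All 5 MM animals were higher on the Regenerating side, both MOON animals were lower by little, and MM17 alone differed by 1.46 on the log2 scale against -0.07 to 0.52 in the other 6. Over the 7 animals Xbp1 differed by 0.39 (SE 0.16, 95% interval 0.04 to 0.73; 1.31-fold), with an adjusted p of 0.681 by limma and an exact sign-flip p of 0.0625. Without MM17, whose Non-regenerating array stood apart, it differed by 0.21 (adjusted p = 0.824 by limma). Higher in every MM and lower in both MOON animals was the pattern of 1.83% of all tested probe sets.

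**Figure D2:**
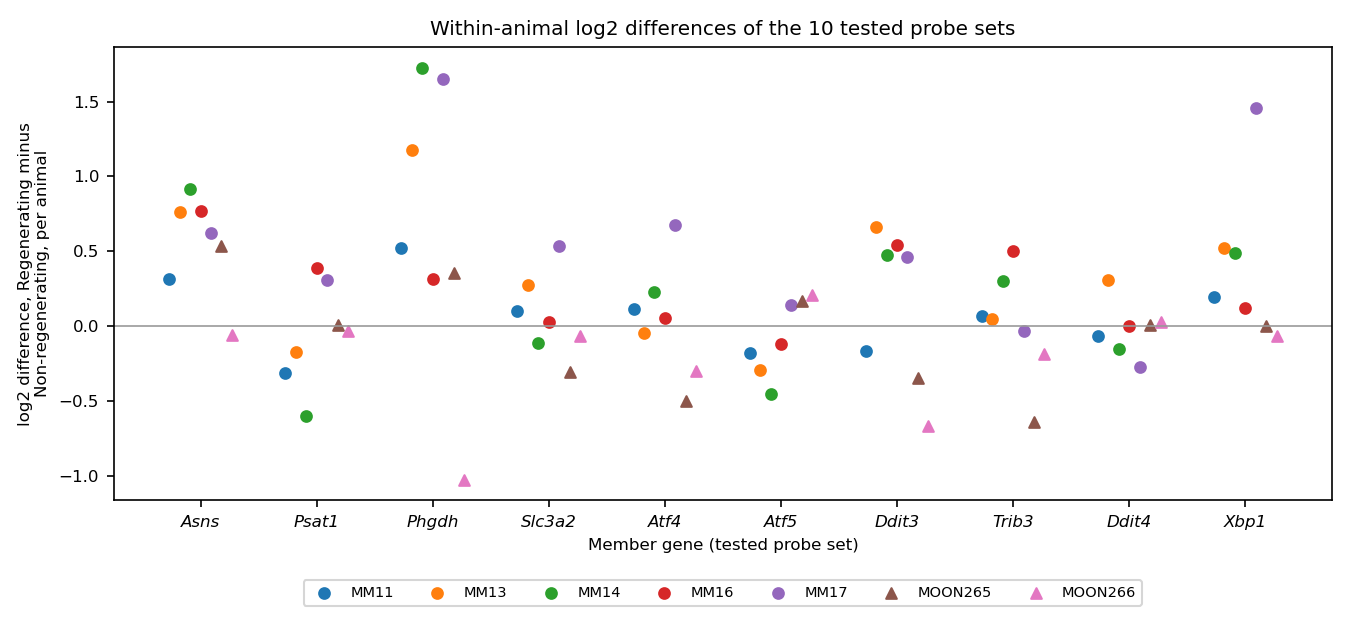
Log2 difference between the Regenerating and the Non-regenerating array of each of the 7 animals, for each of the 10 genes. Each point is 1 animal, coloured by its name, with circles for MM and triangles for MOON animals, and the line marks 0; Asns lies above 0 in 6 animals, and Xbp1 in the 5 MM animals, with MM17 at 1.46.

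Over the 10 genes the median log2 difference was 0.05, and 7 were higher on the Regenerating side, while 49.8% of all tested probe sets were higher, with a median of -0.00. At an unadjusted p under 0.05, 3 of the 10 were higher and 0 lower, beside 4.26% and 2.81% of all tested probe sets, and after adjustment 0 of the 10 passed beside 0.0161% (3 probe sets). The groups of all 10 overlapped, and 0.0107% of all tested probe sets lay clear of overlap in either direction. These shares describe a list that was chosen with earlier results in view. Asns kept its direction and an unadjusted p under 0.05 in 20 of 20 other settings, at 0.49 to 0.68, and its adjusted p was 0.335 to 0.9999. Phgdh had such a p in 14 of 20, at 0.48 to 1.08, and Xbp1 in 14 of 20, at 0.21 to 0.56. These 20 settings hold the fit without MM17 more than once, as a left-out animal and for its array that stood apart.

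For several of the genes the within-animal differences averaged apart in the 5 MM and the 2 MOON animals, but none of the 10 passed a test of this. The within-animal difference of Phgdh averaged 1.08 in the 5 MM animals and -0.34 in the 2 MOON animals (difference of differences -1.41, SE 0.48, adjusted p = 0.912 by limma). For Ddit3 the averages were 0.40 and -0.51 (-0.90, SE 0.35, adjusted p = 0.912). For Atf4 they were 0.20 and -0.40 (-0.61, SE 0.28, adjusted p = 0.912). Asns averaged 0.68 and 0.24 (-0.44, SE 0.28, adjusted p = 0.912 by limma). The differences of Psat1 and Ddit4 between the prefixes were 0.07 and 0.05. At an unadjusted p under 0.05 were Phgdh, Ddit3 and Atf4, 3 of the 10 genes. Over all tested probe sets 5.11% had an unadjusted p under 0.05 for this term and 0.00537% passed.

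The level, apart from any difference, was also set against the name prefix. Ddit3 read 34.6 to 64.1 on the 4 MOON arrays and 84.8 to 221.1 on the 10 axotomised MM arrays. It was the only one of the 10 genes whose ranges did not overlap. Asns read 272.5 to 402.6 and 377.2 to 952.9, and Phgdh 15.5 to 48.1 and 16.9 to 315.6, with overlap in both. Psat1 ran the other way, with means of 3515 on the MOON and 2933 on the MM arrays and overlapping ranges. A gap like that of Ddit3, with the MOON arrays lower, was found for 14.6% of all tested probe sets, and with the MOON arrays higher for 5.34%. The gap of Ddit3 therefore does not set these genes apart from the rest. What the names MM and MOON stand for is not given in the sources used here.

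The comparison of Non-regenerating with Traced neurons asks which genes go with axotomy, between animals and with 3 Traced arrays. None of the 10 genes passed, beside 0.043% of all tested probe sets, and 0 had an unadjusted p under 0.05, beside 10.3%. Psat1 had the smallest p: its Traced signals were 2108.1 in MM15 and 2664.8 and 2678.3 on the other arrays, a mean of 2484 ± 325 (SD, n = 3) against 3151 ± 501 (SD, n = 7), and the log2 difference was 0.33 (SE 0.22, adjusted p = 0.536 by limma; two-sided exact permutation p = 0.0917, unadjusted). The groups overlapped for Psat1 as for the other 9 genes, while 1.1% of all tested probe sets lay wholly higher and 1.47% wholly lower. Asns read 259.0 in MM15, 507.1 in MM18 and 423.7 in MM19, close to its Non-regenerating values, with a log2 difference of 0.10 (SE 0.28, adjusted p = 0.910 by limma).

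For Atf4, Ddit3 and Xbp1, MM15 stood apart from the other Traced arrays. Atf4 read 226.8 in MM15, 476.1 in MM18 and 372.8 in MM19 (log2 difference 0.17, SE 0.30, adjusted p = 0.846 by limma). Ddit3 read 47.4, 145.7 and 161.8 in these animals (0.00, SE 0.40, adjusted p = 0.998). Xbp1 read 239.2, 660.2 and 711.9 (0.19, SE 0.39, adjusted p = 0.871). In each case MM15 was by far the lowest of the 3, and the other 2 lay within the Non-regenerating range. MM15 lay below that range for Ddit3 (62.8 to 213.1) and within it for Atf4 (215.9 to 551.0) and Xbp1 (205.8 to 753.3). MM15 was the lowest Traced array for 7 of the 10 genes and the highest for Trib3 and Ddit4, and Non-regenerating MM17 was the lowest of its group for 4 and the highest for Trib3. Without MM15 the difference of Ddit3 was -0.47, of Xbp1 -0.30, of Asns -0.17 and of Atf4 -0.11, each with its sign turned.

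Phgdh (50.6, 87.8 and 28.7 in MM15, MM18 and MM19) differed by 0.25 (SE 0.52, adjusted p = 0.869 by limma), Slc3a2 (415.5 to 645.8 in Traced neurons) by 0.16 (SE 0.22, adjusted p = 0.774) and Ddit4 (241.7 to 424.5) by 0.05 (SE 0.25, adjusted p = 0.953). Atf5 (147.8 to 168.3) and Trib3 (41.1 to 61.9) were the 2 genes lower in Non-regenerating neurons, by -0.06 (SE 0.23, adjusted p = 0.934) and -0.25 (SE 0.29, adjusted p = 0.737). In all, 8 of 10 were higher with a median of 0.13, while 38.8% of all tested probe sets were higher with a median of -0.12. The scaling moves that background: after centring every array on its own median log2 signal, the medians were 0.49 over the 10 genes and 0.24 over all probe sets.

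Regenerating neurons were also set against Traced neurons, a comparison that shares its arrays with both others. Asns differed by 0.65 (SE 0.35, adjusted p = 0.270 by limma), Xbp1 by 0.58 (SE 0.29, adjusted p = 0.254) and Phgdh by 0.93 (SE 0.61, adjusted p = 0.382). The groups overlapped for all 10 genes, for Asns at 291.5 to 952.9 against 259.0 to 507.1, while 2.35% of all tested probe sets lay wholly higher and 9.36% wholly lower. The other differences were 0.27 for Psat1 (SE 0.22), 0.23 for Slc3a2 (SE 0.24), 0.20 for Atf4 (SE 0.32), 0.14 for Ddit3 (SE 0.50), 0.03 for Ddit4 (SE 0.25), -0.14 for Atf5 (SE 0.23) and -0.24 for Trib3 (SE 0.30), with adjusted p of 0.486 to 0.959 by limma. None of the 10 passed and 0 had an unadjusted p under 0.05, beside 0.215% and 23.6% of all tested probe sets; 8 of 10 were higher (median 0.22), beside 40.8% of all (median -0.12).

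The values against Traced neurons moved with the arrays and terms in the fit. Among MM animals alone Asns differed by 0.98 (SE 0.24) and Phgdh by 1.56 (SE 0.37), both with an adjusted p of 0.0764 by limma. With array weights, a fit that counts deviant arrays less, Asns (0.68, adjusted p = 0.0283) and Phgdh (1.52, adjusted p = 0.0166) passed, beside 16.8% of all tested probe sets in that fit. Without Traced MM15 Asns differed by 0.39 (adjusted p = 0.741) and Xbp1 by 0.09 (adjusted p = 0.919), so the value of Xbp1 rests on that array. Ddit3 differed by -0.33 and Atf4 by -0.08 without it, both with their sign turned. For Ddit3 that was the lowest value over the settings, and the highest was 0.65, among MM animals alone. Phgdh differed by 2.16 (SE 0.82, adjusted p = 0.762) with the Gapdh 3 prime to 5 prime ratio as a covariate and by 0.63 without Traced MM19.

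**Figure D3:**
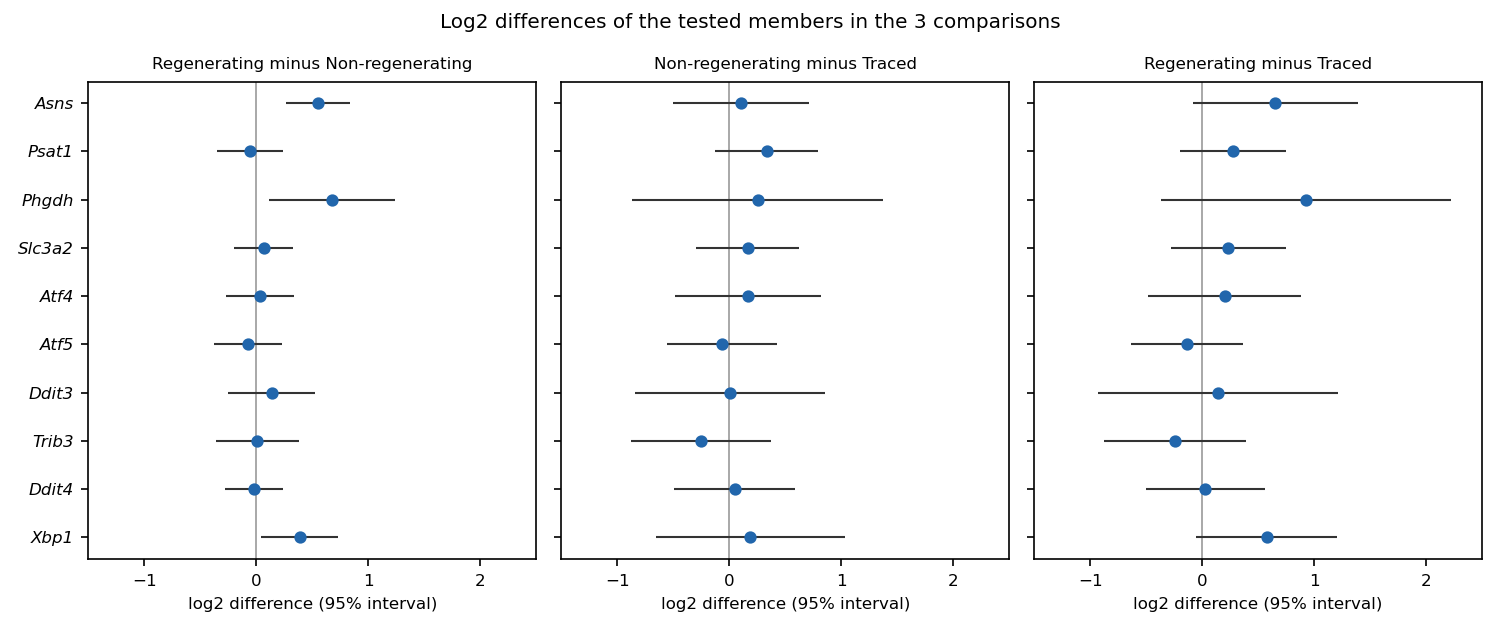
Log2 difference of each of the 10 genes in the 3 comparisons, with 95% intervals from limma. Points are estimates and the vertical line marks 0; the interval of Asns runs from 0.27 to 0.84 between Regenerating and Non-regenerating neurons, and the intervals against Traced neurons are wider and include 0 for all 10 genes.

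The other genes of the pathway were taken from 6 lists, which hold some of the 10 genes themselves. In the comparison within animals, 49.8% of all tested probe sets were higher, and 4.26% were higher at an unadjusted p under 0.05. Of 15 tested genes of amino acid synthesis, 10 were higher in Regenerating than in Non-regenerating neurons (median log2 difference 0.09), and 3 had an unadjusted p under 0.05: Asns, Phgdh and Cbs, which makes cystathionine from homocysteine and serine (0.44, SE 0.20, adjusted p = 0.697 by limma). Psph, the last enzyme of serine synthesis, differed by 0.52 (SE 0.30, adjusted p = 0.724). Of 14 amino acid transporters, 5 were higher and 9 lower (median -0.11), with Slc7a6, a partner of Slc3a2, at 0.37. None passed.

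Aminoacyl-tRNA synthetases, which load amino acids onto transfer RNA, were the list most often higher. Of 18 cytosolic synthetases, 17 lay higher on the Regenerating side (median 0.17), beside 49.8% of all tested probe sets. At an unadjusted p under 0.05, 5 of them were higher, beside 4.26% of all, and 0 passed (smallest adjusted p = 0.678 by limma). These were Kars1 for lysine (0.58, SE 0.20), Sars1 for serine (0.46), Qars1 for glutamine (0.39), Eprs1 for glutamate and proline (0.34) and Yars1 for tyrosine (0.31). Without MM17, 14 of the 18 were higher (median 0.12), and in the MOON animals 14 (median 0.12). Of 17 promoter windows of these genes, 7 held the CARE (41.2%), those of Aars1, Cars1, Iars1, Mars1, Nars1, Tars1 and Yars1. The 7 genes with the site had a median difference of 0.07 and the 9 tested genes whose window lacks it 0.26, a description with no test that leaves out Gars1 and Rars1.

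The regulators of eIF2 and the targets of Atf4 and Chop showed no common direction. Of 16 regulators, 10 were higher in Regenerating than in Non-regenerating neurons (median 0.09), and those with the smallest p were Eif2b4 (0.30) and Eif2b1 (0.30), subunits of the exchange factor eIF2B, and Eif2s1 (0.24), the eIF2 subunit that is phosphorylated. By name prefix, 13 of the 16 regulators were higher in the MM animals (median 0.08) and 7 in the MOON animals (median -0.04). Of 22 targets and partners, 12 were higher and 10 lower (median 0.02), with Xpot, a nuclear exporter of transfer RNA, at 0.32, Sesn2, a leucine sensor, at 0.19, and Vldlr, a lipoprotein receptor, at -0.28. Of 29 genes of the Xbp1 and Atf6 arm, which fold and clear protein in the endoplasmic reticulum, 17 were higher (median 0.04), with Creb3 at 0.66 (SE 0.19, adjusted p = 0.651 by limma) and Sec61a1, of the translocation channel, at -0.32. None of these passed.

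Against Traced neurons, individual stress genes, named for their small p, lay farther apart than most of the 10 genes did, in both directions. Phgdh, at 0.93 in Regenerating neurons, differed by about as much as Chac1. Atf3, a stress partner of Atf4 that is induced by axotomy, differed by 2.32 (SE 0.50, adjusted p = 0.203 by limma) in Non-regenerating and by 2.51 (SE 0.60, adjusted p = 0.0684) in Regenerating neurons. Cebpg, a dimer partner of Atf4, differed by 0.66 (SE 0.23, adjusted p = 0.472) in Non-regenerating neurons. On the lower side, Eif4ebp1, a translation inhibitor that Atf4 induces, differed by -1.42 (SE 0.53, adjusted p = 0.472) and -1.45 (SE 0.39, adjusted p = 0.0699), and Chac1, which breaks down glutathione and is a target of Atf4 and Chop, by -0.86 (SE 0.35) and -0.94 (SE 0.27, adjusted p = 0.0737). Eif4ebp1 was dim, with mean signals of 35.6 in Regenerating, 45.4 in Non-regenerating and 111.8 in Traced neurons. None of the named genes passed, and of the 22 genes 11 were higher and 11 lower in either comparison (medians -0.03 and -0.01). Over all tested probe sets, 38.8% and 40.8% were higher.

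No gene of the other lists passed against Traced neurons in the main fits either. The transporters Slc1a5, for glutamine, and Slc7a11, the cystine exchanger, differed by -0.55 and 0.46 in Non-regenerating neurons, and Slc1a5 by -0.68 in Regenerating neurons. Dnajc3, an inhibitor of the unfolded protein kinase, differed by 0.52 and 0.61, and Creb3l2, a membrane-bound transcription factor, by -1.08 and -1.11 (adjusted p = 0.0866 in Regenerating neurons by limma). Of 15 synthesis genes, 10 and 11 were higher in Non-regenerating and Regenerating neurons (medians 0.10 and 0.31), and of 18 synthetases 10 and 12 (medians 0.04 and 0.21). Beside these, 38.8% and 40.8% of all tested probe sets were higher (median -0.12 in both). After the same centring of arrays, 18 of 18 synthetases and 15 of 15 synthesis genes were higher in both comparisons, beside 69.4% and 69.2% of all probe sets, so these counts turn on the scaling.

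**Figure D4:**
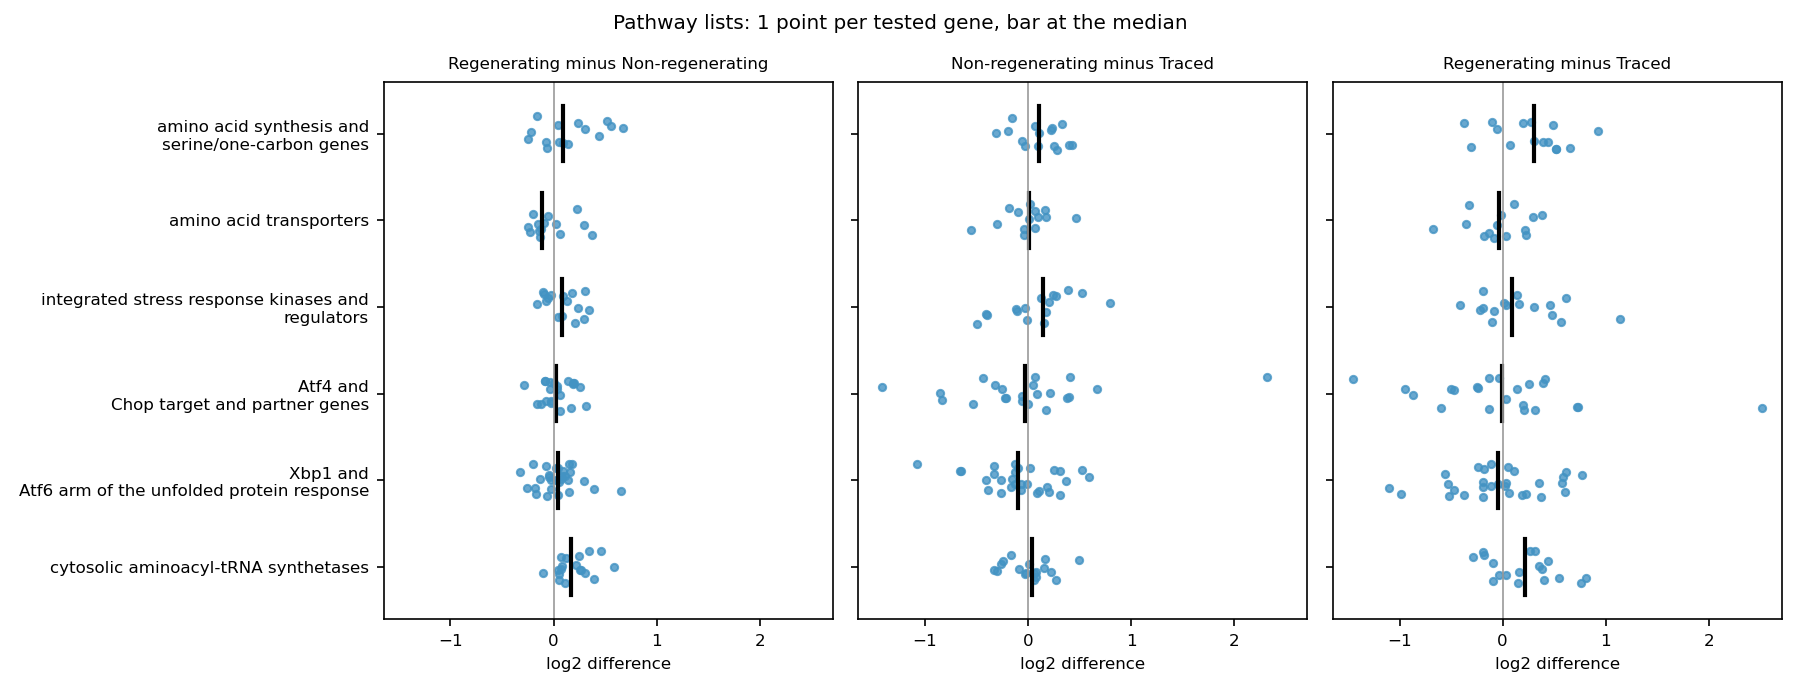
Log2 differences of the tested genes of 6 pathway lists in the 3 comparisons. Each point is 1 gene at its brightest tested probe set and each black bar a list median; in the comparison within animals 17 of 18 synthetases lie above 0, and against Traced neurons Atf3 lies highest at 2.32 and 2.51.

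Several of the 10 genes followed each other over the arrays. After the mean of each name prefix was taken off, Pearson's r over the 17 arrays was 0.89 for Atf4 and Xbp1, 0.86 for Ddit3 and Xbp1, 0.86 for Atf4 and Ddit3 and 0.76 for Asns and Phgdh. Without the 2 arrays that stood apart these became 0.59, 0.78, 0.70 and 0.75, while that of Asns and Slc3a2 went from 0.58 to 0.05. Over all 17 arrays, the named genes most like Asns were Emc10 (r = 0.95), Eif3d and Htra1 (0.93 each). Those most like Xbp1 were Rpsa, Akr1a1 and Rfc4 (0.98 each). On the 2 arrays that stood apart Xbp1 read 205.8 and 239.2, against 547.8 to 865.3 on the other 15. The likeness values were not computed without these 2 arrays. Pairs of values on 1 array share its RNA, its amplification and its quality, so these correlations are given as descriptions of 17 arrays from 10 animals.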

How the data were processed

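Affymetrix rat arrays measured gene expression, 1 array per sample of laser captured neurons. The deposited values are linear signal intensities, computed by the authors in GCOS per the submitters' processing notes (version and settings are not given in the sources used here), and were used as deposited. After an offset of 16 and log2, the 57 control probe sets and the 12417 whose mean was under the 40th percentile were dropped.

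Groups came from the labels. Regenerating and Non-regenerating neurons, from the same rats per the series' design text, were compared with the animal as a block; the deviations of an animal's 2 arrays correlated with r = 0.34 to 0.71. Both were compared with Traced neurons between animals. The fits used lmFit and eBayes (trend) of limma 3.58.1 under R 4.3.3 over all 18625 probe sets. A gene passed where its p after Benjamini-Hochberg adjustment over them was under 0.05. SE is limma's. Exact sign-flip and permutation tests were added for single genes. The code was tested on simulated data. The number of arrays limits the precision.

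Named were the 10 genes and, per pathway list and comparison, any that passed or else up to 3 with the smallest p, at the brightest tested probe set; Psph, Eprs1 and Yars1 were added after their values were seen, and not every gene the rule allows is printed. For likeness, the genes with the highest r were taken. Members, lists and tests were chosen with earlier results of these data known. Alternatives covered scaling, offset, filter, trend, weights, block, 1 fit over all arrays, 3 prime bias, name prefix and left-out arrays; the MOON animals alone, the exact tests and the list counts without arrays were added after seeing the data.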

Additional observations from a re-analysis of the deposited data

Results flagged for a closer look

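Xbp1 in the Non-regenerating neurons of MM17 read 205.8, far below the other 6 arrays of its group at 547.8 to 753.3. After the offset and log2, the gap was 0.75 of the whole range. The within-animal difference of Xbp1 in MM17, 1.46 on the log2 scale, also lay far above the other 6 animals at -0.07 to 0.52 (a gap of 0.61 of the range), and it rests on the same array. Among 36 such checks of the 10 genes these 2 stood out, and chance alone makes about 1 in 20 do so.

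Xbp1 was higher in Regenerating neurons in all 5 MM animals and lower in both MOON animals, by little in the latter, a pattern met by 1.83% of all tested probe sets. The difference between the prefixes was -0.59 (SE 0.34) and did not pass (adjusted p = 0.912 by limma).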

How the results depend on the processing

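No gene of the 10 passed under any alternative run in the comparison of Regenerating with Non-regenerating or of Non-regenerating with Traced neurons. Against Traced neurons, 2 passed in Regenerating neurons with array weights (Phgdh 1.52, Asns 0.68). With each array centred on its median, the medians over the 10 genes were 0.49 and 0.61 against Traced neurons, where all probe sets moved to 0.24 and 0.26. Of 657 values of single genes under the alternatives, 62 had another sign than reported, 16 of them among 199 within animals, all for differences that had not passed. Some fits are counted more than once in these values. They are the fit without MM17 within animals and that of Regenerating neurons without Traced MM15. With no replicate block the pairing was dropped: the count within animals was 0, the median 0.05, and Asns had an adjusted p of 0.9999 by limma. In 1 fit over all arrays with the animal as replicate block the count was 0 in each comparison. Without Non-regenerating MM17 and Traced MM15 the medians against Traced neurons were -0.03 and 0.06. In the MOON animals alone, with no test, Asns differed by 0.24, Phgdh by -0.34 and Xbp1 by -0.03. Counts over all probe sets ranged from 0 to 3 within animals, from 2 to 2440 in Non-regenerating and from 1 to 3131 in Regenerating against Traced neurons; the highest came with array weights. Signals near the offset, as for Trib3 and Phgdh, bound the size of a difference.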
